A study of Mus musculus with 6 samples.

Results

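The transcript described here is Apoe, which encodes apolipoprotein E, in small extracellular vesicles (sEVs) from brown and white adipose tissue of mice. Its members were chosen by probe identity alone: the spots that are not controls and carry the Agilent probe A_51_P171999, which the array design assigns to the transcript NM_009696. This is 1 gene of the 46 that could be named, by RefSeq accessions looked up in the mouse genes of assembly GRCm38, and 1 probe of 60823 on the array. Cy3-labelled total RNA was read on 6 arrays of the Arraystar Mouse LncRNA V4 design, 3 with sEV-BAT and 3 with sEV-WAT, which the study calls biological replicates. The sEV-BAT came from interscapular brown fat and the sEV-WAT from inguinal white fat of C57BL/6 male mice, and the labels name no treatment. The sample labels give an age of 6 to 8 weeks and their isolation protocol gives 6 weeks. In both groups the minced fat was kept in culture for 2 days, and the sEVs were pelleted by ultracentrifugation from the medium. Per the methods, each replicate stands for a separate group of mice. Both fats of a group may thus come from the same animals, but which sEV-BAT array would go with which sEV-WAT array is not stated. Whole fat pads were used, so any of their cells could have released the sEVs, and the arrays measured bulk RNA. Fewer sEVs that carry a transcript and less transcript per sEV cannot be told apart.

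Apolipoprotein E is a secreted protein of plasma lipoproteins. It binds receptors on the cell surface by which cells take up lipoprotein remnants, and it accepts cholesterol that cells export. The liver is its main source, and macrophages and adipocytes also express the gene. In the mouse gene table, Apoe lies on chromosome 7 with Apoc1, another apolipoprotein gene, on one side and Tomm40, which encodes a channel of the mitochondrial outer membrane, on the other. The table lists 4 curated transcripts of Apoe, and which of them the probe detects was not analysed here.

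Apoe was readily measured in both kinds of sEV. The probe has 10 spots at the same places on each array, and the scanner software called 10 of 10 well above background on every array. The spots ran from 1371 to 1955 intensity units in background-subtracted signal over the 6 arrays, and the local background around them was 13 to 17 units. No Apoe spot was saturated. The software marked 5 of the 60 Apoe spots as outliers, either for uneven signal within the spot or against their population. Of these, 3 were on sEV-WAT 1 and 1 each on sEV-BAT 2 and sEV-BAT 3, and all were left out of the means.

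Before normalization between arrays, the mean Apoe signal was 1822 on sEV-BAT 1, 1810 on sEV-BAT 2 and 1864 on sEV-BAT 3. It was 1737 on sEV-WAT 1, 1482 on sEV-WAT 2 and 1483 on sEV-WAT 3. The sEV-BAT arrays lay close together, sEV-WAT 1 lay nearer to them than to the other two sEV-WAT arrays, and the groups did not overlap. Mean signal was 1832 ± 28.6 for sEV-BAT and 1567 ± 147 for sEV-WAT (SD, n = 3 each). On the log2 scale the difference, sEV-BAT minus sEV-WAT, was 0.23 (standard error 0.12, limma adjusted p = 0.123, adjusted by Benjamini-Hochberg for the 54443 probes that entered the test). Such a position was common at this stage: 70.0% of the tested probes had all 3 sEV-BAT arrays above all 3 sEV-WAT arrays before normalization.

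**Figure D1:**
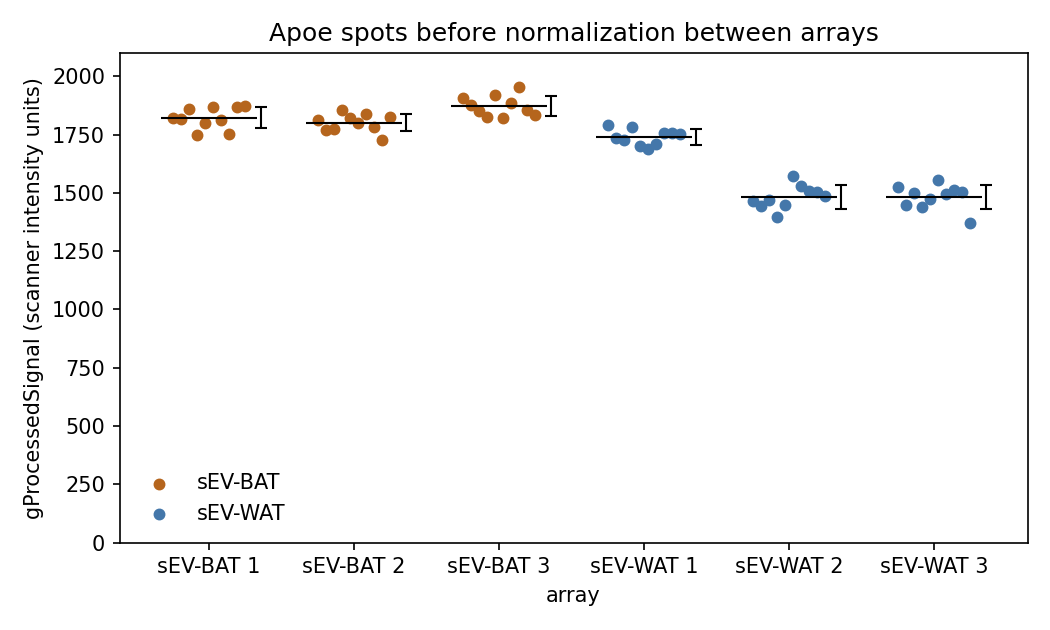
Background-subtracted Apoe signal in scanner intensity units for the 10 spots of each of the 6 arrays, before normalization between arrays; points are spots, the horizontal line is their mean and the bar to its right is ± 1 SD over all 10 spots. The spots of one array lie close together, and sEV-WAT 2 and sEV-WAT 3 sit below the other arrays.

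The spots of one array share its RNA and are technical repeats, not replicates. After outlier spots were left out, their coefficient of variation was between 1.6% and 3.5%. The SD of the log2 values within arrays was 0.029 in sEV-BAT and 0.044 in sEV-WAT, and the SD between the array means was 0.022 and 0.13. The first pair describes single spots and the second describes means over the spots of an array. Among the 40 Agilent gene probes with 10 spots whose signal cleared background on every array, Apoe had the second smallest spread between spots, at 0.037 against a median of 0.075 in log2 units. Taken spot by spot, with outliers kept, the unnormalized difference between groups ran from 0.19 to 0.27 over the 10 places on the array. It was above 0 at 10 of 10 places, and the groups did not overlap at 7 of them. Before normalization 93.5% of all tested probes were higher in sEV-BAT, and 70.0% had the groups apart in that order.

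The sEV-BAT arrays were brighter as a whole. Their median probe signal was 81.2 to 92.1, against 57.1 to 58.5 on the sEV-WAT arrays. They had 54759 to 56786 probes well above background, against 51590 to 52543. Set against the brightness of its own array, Apoe stood lower in sEV-BAT. Its signal was 20.5, 22.3 and 20.2 times the median probe signal on sEV-BAT 1, sEV-BAT 2 and sEV-BAT 3. It was 29.8, 26.0 and 25.3 times the median on sEV-WAT 1, sEV-WAT 2 and sEV-WAT 3. The group means were 21.0 ± 1.1 and 27.0 ± 2.4 (SD, n = 3 each). Against the 75th percentile signal of its array, Apoe was 3.51, 3.38 and 3.66 times as bright on sEV-BAT 1, sEV-BAT 2 and sEV-BAT 3. It was 4.31, 4.11 and 4.19 times as bright on sEV-WAT 1, sEV-WAT 2 and sEV-WAT 3. How many other probes had the groups apart on these ratios was not computed.

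**Figure D2:**
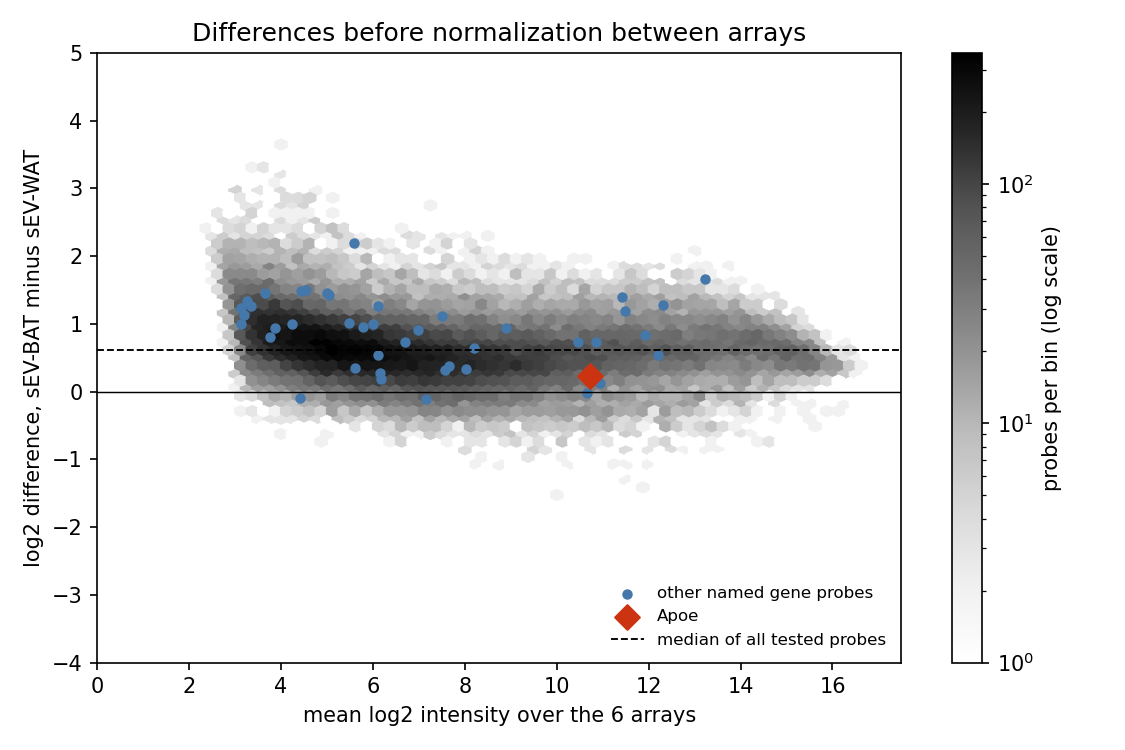
Log2 difference before normalization, sEV-BAT minus sEV-WAT, against mean log2 intensity over the 6 arrays; grey bins count the tested probes on a log scale, blue points are the other named gene probes, the red diamond is Apoe and the dashed line is the median of all tested probes. Apoe, at 0.23, lies above 0 and below the median of 0.62.

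The unnormalized Apoe difference of 0.23 lay below the median difference over all tested probes, which was 0.62, and 14.8% of the tested probes had a smaller or more negative difference. The place of a probe among the probes of its own array needs no normalization between arrays. It mixes transcript amount with how well each probe hybridizes, so it can be followed from array to array and says nothing about Apoe against other transcripts. Ranked from the brightest, Apoe was probe 9004 on sEV-BAT 1, 9426 on sEV-BAT 2 and 8673 on sEV-BAT 3. It was probe 8153 on sEV-WAT 1, 8254 on sEV-WAT 2 and 8159 on sEV-WAT 3, of 60790 to 60818 probes with a usable spot. On every sEV-WAT array it was nearer to the top than on any sEV-BAT array. As percentiles, 85.1% ± 0.62 of the probes were dimmer than Apoe on the sEV-BAT arrays and 86.5% ± 0.096 on the sEV-WAT arrays (SD, n = 3 each). The difference was -1.39 percentage points (p = 0.1 by an exact permutation test, two-sided, which can give no smaller value with 3 arrays a group).

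Quantile normalization, which the study used, gives every array the same distribution of values, so a normalized value follows from the rank just given and is not further evidence. The normalized log2 intensity of Apoe was 10.58 on sEV-BAT 1, 10.44 on sEV-BAT 2 and 10.70 on sEV-BAT 3. It was 10.89 on sEV-WAT 1, 10.85 on sEV-WAT 2 and 10.89 on sEV-WAT 3. The sEV-WAT arrays were now the tight group, every sEV-BAT value lay below every sEV-WAT value, and the group means were 10.57 ± 0.13 and 10.88 ± 0.02 (SD, n = 3 each). Of all tested probes, 21.8% were placed in this way after normalization, and 14.5% had the groups apart in the opposite order.

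**Figure D3:**
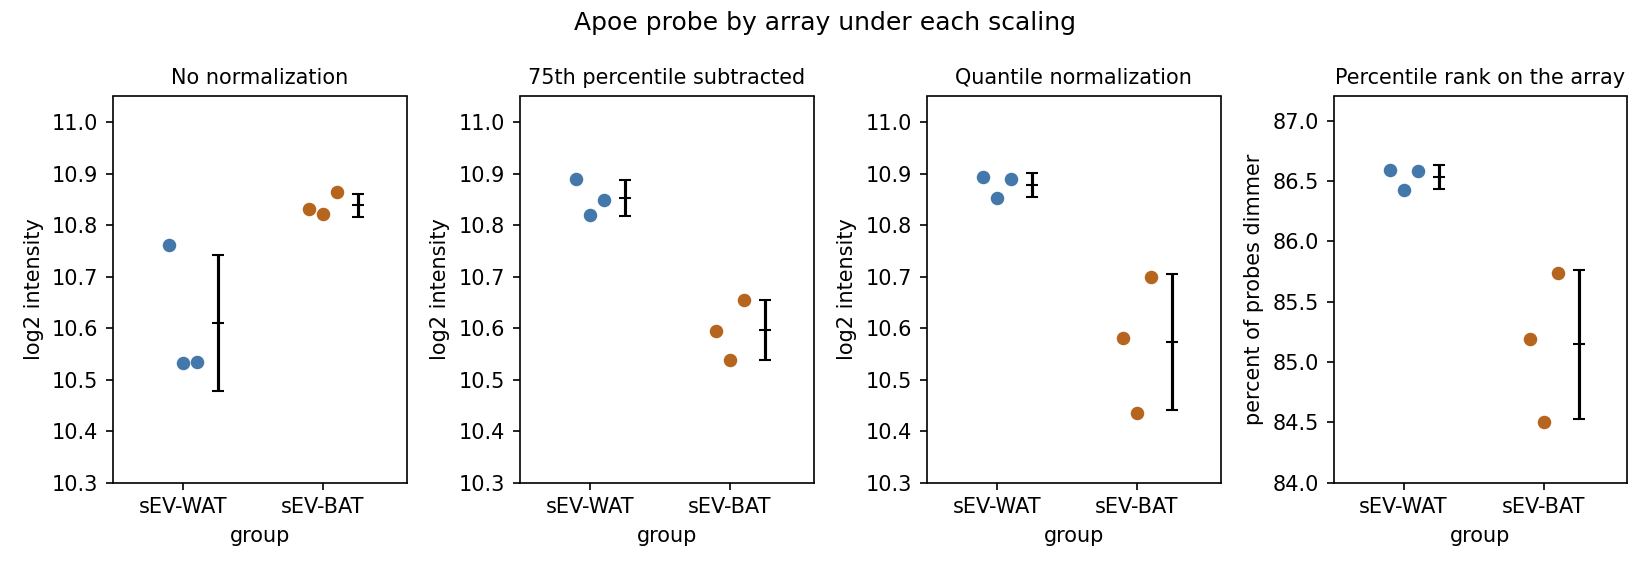
Apoe on each of the 6 arrays as log2 intensity without normalization, with each array's 75th percentile subtracted and after quantile normalization, and as the percent of probes on the same array that were dimmer; points are arrays and bars are the mean ± 1 SD (n = 3). The sEV-BAT arrays sit above the sEV-WAT arrays in the first panel and below them in the other panels, and no vertical axis starts at 0.

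The normalized difference was -0.31 on the log2 scale (standard error 0.10, 95% interval -0.55 to -0.063), so Apoe was 1.24-fold lower in sEV-BAT. It did not pass the adjusted threshold of 0.05 (limma, adjusted p = 0.108, unadjusted p = 0.0213), which 7.61% of the tested probes passed, 4.81% with a lower and 2.79% with a higher value in sEV-BAT. At an unadjusted limma p of at most 0.05, where Apoe counted, 28.8% of the tested probes did, and 17.4% did so with a lower value in sEV-BAT. The study's fold change of 2 was passed together with an unadjusted p of at most 0.05 by 2.27% of the probes. Apoe was not among them, since its 1.24-fold difference fell short of that limit. Its whole interval also lay inside the limit. The median difference of all tested probes was -0.02 after normalization, and 20.1% of them had a more negative difference than Apoe.

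The direction depended on the scaling. With the 75th percentile of each array subtracted, the difference was -0.26, and with cyclic loess, a normalization by trends against brightness that was added after the values were seen, it was -0.32. Against the median of the other Agilent gene probes with 10 spots it was -0.68, and this was the only setting in which it passed the adjusted threshold (limma, adjusted p = 0.0193, with adjusted p-values from 0.0193 to 0.496 over all alternatives). In that setting 24.1% of all tested probes passed, and the median difference of all tested probes was -0.30. Against Actb, also chosen after the values were seen, Apoe was 0.33 higher in sEV-BAT. Actb, which encodes a cytoskeletal actin, is a poor reference here, since its signal was between 19.3 and 26.3 on the 6 arrays. Against the Mouse-GAPDH control probes, another scaling added later, the difference was -0.26. Scaling by the 14 control probes with spike-in names that cleared background on every array gave -0.27 (limma, adjusted p = 0.196). The methods mention no added spike-in RNA, so these probes cannot be taken as an outside reference. The signal of ERCC-00104_60 ran from 2637 to 8294 over the arrays. Some of these probes were no brighter than Actb, and their own unnormalized differences ran from -0.19 to 1.14.

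**Figure D4:**
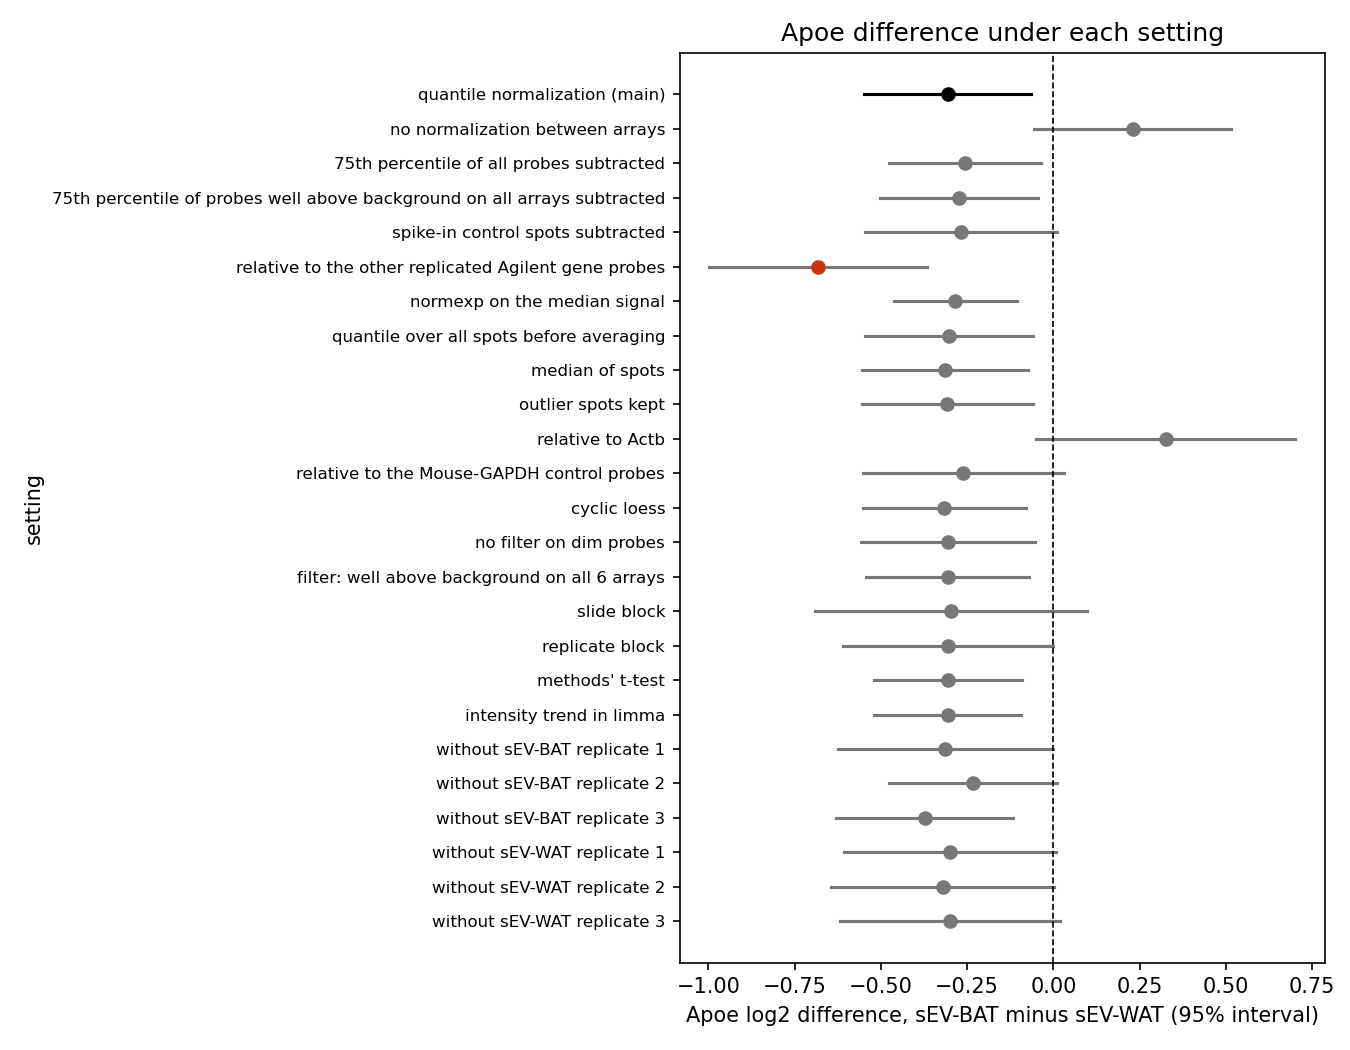
Apoe log2 difference, sEV-BAT minus sEV-WAT, under quantile normalization (black, top) and under each alternative setting; points are estimates, lines are 95% intervals and the red point marks the setting with an adjusted p of at most 0.05. Values lie below 0 under all settings drawn except without normalization, at 0.23, and relative to Actb, at 0.33.

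Slide moved in part with the groups. One slide carried all 3 sEV-WAT arrays together with sEV-BAT 1. The remaining pair of sEV-BAT arrays was on a separate slide. Within the shared slide, the normalized value of 10.58 for sEV-BAT 1 stood below the sEV-WAT values, and the values of sEV-BAT 2 and sEV-BAT 3 lay on either side of it. With slide as a block, which amounts to that comparison, the difference was -0.30 (limma, adjusted p = 0.496). One array, sEV-WAT 2, was scanned apart from the others, and without it the difference was -0.32. Omitting 1 array at a time kept the difference between -0.37, without sEV-BAT 3, and -0.23, without sEV-BAT 2.

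The list of genes of lipoprotein and cholesterol handling drawn up for this work holds 54 genes besides Apoe, among them the other apolipoproteins, Lrp1, Lpl, Scarb1, Abca1 and the LXR genes. Only Ppara, a nuclear receptor that activates genes of fatty acid oxidation, could be named on the array, so the rest of the pathway was not analysed here. Its normalized log2 intensity was 6.78 on sEV-BAT 1, 4.94 on sEV-BAT 2 and 7.62 on sEV-BAT 3. It was 4.72 on sEV-WAT 1, 5.10 on sEV-WAT 2 and 4.75 on sEV-WAT 3. The array sEV-BAT 2 lay among the sEV-WAT arrays and the other two sEV-BAT arrays lay above them. The difference was 1.59 (limma, adjusted p = 0.172), so 0 of the 1 listed genes measured passed the adjusted threshold. The value rested on single sEV-BAT arrays, at 2.34 without sEV-BAT 2 (limma, adjusted p = 0.0385) and 1.02 without sEV-BAT 3 (limma, adjusted p = 0.355). Ppara also passed without normalization, at 2.20 (limma, adjusted p = 0.0238), and relative to Actb, at 2.29 (limma, adjusted p = 0.0119). In these settings 65.3% and 66.6% of all tested probes passed as well. Ppara is also the only gene that could be named among the 43 markers listed for brown and white adipocytes, macrophages, endothelium, liver, muscle, red blood cells and sEVs. The labelled tissues were therefore not checked against their defining markers, and no level of macrophage or adipocyte markers can be set beside Apoe.

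Over the 6 arrays, the normalized values of 42 other named gene probes were compared with those of Apoe. Of the 5 with the highest Pearson correlation, 4 are described here: Actb, at 0.81, Hyal3, at 0.77, Gsdmd, at 0.76, and Pex11a, at 0.74. Hyal3 encodes a hyaluronidase, Gsdmd the pore-forming gasdermin D and Pex11a a peroxisomal membrane protein. These points share 6 arrays and 1 normalization, and the likeness followed the group difference: with group means removed, these 4 correlations ran from -0.56 to -0.03. The likeness also depended on the scaling. Before normalization the correlation with Apoe was 0.25 for Actb, 0.96 for Hyal3, -0.84 for Gsdmd and -0.31 for Pex11a. After normalization these 4 genes had, like Apoe, a lower mean in sEV-BAT, which their choice by correlation with Apoe makes likely. The differences were -0.90, -0.17, -0.63 and -0.57 in the order above. Hyal3 was 0.32 higher in sEV-BAT before normalization, and relative to Actb Hyal3 and Pex11a were 0.41 and 0.08 higher. Before normalization the differences of Actb, Gsdmd and Pex11a were -0.10, -0.11 and -0.01 (limma, adjusted p = 0.582, 0.406 and 0.928). Actb and Gsdmd passed the adjusted threshold (limma, adjusted p = 0.0352 and 0.0395), and Hyal3 and Pex11a did not. Both calls were lost before normalization, and when 1 array was omitted, Actb and Gsdmd still passed only in the fit without sEV-BAT 2. Actb was dim, with a signal between 19.3 and 26.3 on the 6 arrays, and the size of its difference depended on the processing. It was -0.26 with normexp background correction (limma, adjusted p = 0.0400) and -0.58 with the 75th percentile of all probes subtracted (limma, adjusted p = 0.0505). Of all other tested probes with a value on every array, 2.72% had a correlation of at least 0.9 with Apoe. In order of the normalized difference, Apoe was the 7th from the most negative among the 43 named gene probes tested, which ran from -0.90 to 1.59 with a median of 0.19, and 8 of the 43 passed the adjusted threshold, against 7.61% of all tested probes.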

How the data were processed

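The authors deposited the scanner output of 6 one-colour arrays from Agilent Feature Extraction 11.0.1.1, with a background-subtracted intensity per spot that is not normalized between arrays. They also deposited a table of log2 values, quantile-normalized in GeneSpring per the methods. That table holds no row for the probes with several spots, Apoe among them, so the spot intensities were used. Log2 was taken, spots marked as outliers were left out, spots of a probe were averaged and arrays were quantile-normalized in limma 3.58.1 (R 4.3.3). The limma test covered the probes that cleared background on 3 or more of the 6 arrays, with Benjamini-Hochberg adjustment, and the fit was tested on simulated data. Ranks and exact permutation tests used Python 3.11.15 with scipy 1.17.1. Alternatives changed the normalization, background correction, spot summary, filter, block and test, and left out each array. Named genes are Apoe, listed genes that the accessions name, and the 5 named probes that correlate best with Apoe, 1 of which is not reported here. The members and lists were chosen with earlier results of these data known. Per the methods, each replicate came from its own group of mice. Every per-sample column of the table belongs to 1 of the 6 samples. The number of arrays limits the precision.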

Additional observations from a re-analysis of the deposited data

How the results depend on the processing

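The Apoe difference, sEV-BAT minus sEV-WAT, was -0.31 in log2 units. Direction and call held under 21 of 24 alternatives. It was 0.23 without normalization, 0.33 relative to Actb and -0.68 relative to the other replicated Agilent gene probes, where it passed. The changed filters, the replicate block, the t-test and the intensity trend reuse the same normalized values, so they could not change the direction. Leaving out each array gave -0.37 to -0.23. Since every normalized sEV-BAT value lay below every sEV-WAT value, neither this nor the slide block could reverse the direction. The rank difference held its direction under all 9 alternatives tried for it (-2.20 to -1.07 percentage points). Since the ranks of the groups did not overlap, leaving out an array could not reverse it.

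Deviations of same-numbered arrays correlated at -0.25, -0.09 and 0.22. Differently numbered arrays were not compared, so these values cannot decide whether the numbers pair the arrays. The numbers were not taken as a pairing. The replicate number as a block gave -0.31 for Apoe (limma, adjusted p = 0.216) and 0 probes past the adjusted p (12499 unadjusted at 0.05).

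Probes past the adjusted p numbered 4141 (36.7% higher in sEV-BAT), against 35568 (99.1%) without normalization, 36282 (99.8%) relative to Actb, 13109 (5.19%) relative to the Agilent probes, 1815 (48.7%) by spike-in spots, 1629 (65.9%) relative to Mouse-GAPDH and 3608 (62.2%) or 3355 (60%) by 75th percentiles of all or detected probes. They numbered 7322 with normexp, 6697 with an intensity trend, 1491 unfiltered, 62 with the methods' t-test and 0 with slide as a block (6405 unadjusted). Leaving out 1 array gave 0 to 4221, with 0 without sEV-BAT 3 or any sEV-WAT array. The cause was not tested.

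Hyal3 was 0.32 higher in sEV-BAT without normalization. With 1 array left out, Actb and Gsdmd passed only without sEV-BAT 2. Actb, Mouse-GAPDH and cyclic loess were chosen after seeing the data. Signal over background did not limit Apoe.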
